A study of Mus musculus with 39 samples.

Results

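The immunity-related GTPases (IRG) are interferon-inducible GTP-binding proteins of the cytosol and inner membranes, and 6 of their genes, Irgm1, Irgm2, Igtp, Iigp1, Tgtp1 and Tgtp2, were followed here through dendritic cells (DC) and T cells of the mouse lymph node. They were chosen by symbol, 6 of 24421 genes in the DC tables of a time course and of a costimulation experiment, of 24411 in a DC table at 20 h and of 7830 in a T cell table, and all 6 passed the filter on low values in each experiment. RNA came from 39 libraries, 33 of them of DC, sorted from popliteal and inguinal nodes of C57BL/6 mice aged 8 to 12 weeks after injection of nanoparticles under the skin of the hock. The series text names ovalbumin (OVA) as antigen, CpG, an agonist of Toll-like receptor 9, as adjuvant, and engrafted OT-I and OT-II T cells that recognize OVA. DC of the time course were wild-type, with 2 libraries each from non-immunized mice, from mice given CpG particles for 12 h or 24 h and from mice given OVA and CpG particles for 12 h or 24 h. In the costimulation experiment, at 12 h, each group had 2 libraries: OVA without OT cells, OVA plus OT cells, bovine serum albumin (BSA) plus OT cells (replicates 1 and 3), all wild-type, and Cd80/86 -/- DC given OVA plus OT cells. Its titles name the protein and not the adjuvant. The 20 h experiment had 5 wild-type libraries each of non-immunized, OVA and CpG, and BSA and CpG mice. CD4+ OT-II T cells of OT-II genotype were sorted at 20 h, 3 libraries after OVA and CpG and 3 after BSA and CpG. Labels of the time course and of the 20 h DC do not say whether a given mouse carried OT cells, and no label says whether replicates were separate animals, so p-values measure the spread between these samples only.

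IRG proteins defend cells against microbes that live in vacuoles. Interferon-gamma and type I interferons induce them, and GAS and ISRE are short elements found in front of interferon-induced genes. The effector proteins, Iigp1 and the Tgtp pair, load onto the vacuole membrane and disrupt it, and the regulatory proteins Irgm1, Irgm2 and Igtp (also called Irgm3) sit on the cell's own membranes and hold the effectors inactive there. Proteins of the autophagy conjugation machinery help to direct effectors to vacuoles, where guanylate-binding proteins also assemble.

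The 5 members on chromosome 11 had a promoter entry in RefSeq (build GRCm38.p6), and the 100 bases before the start of each are shown because they carry the interferon elements that 4 of the 5 hold in a common arrangement. Capitals mark matches to GAS (TTCNNNGAA) followed by ISRE (GAAA repeated at a spacing of 2 bases), and in Irgm1 matches to ISRE alone.
Igtp: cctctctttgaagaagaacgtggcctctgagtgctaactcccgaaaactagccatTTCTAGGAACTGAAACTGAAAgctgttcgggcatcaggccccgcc
Irgm2: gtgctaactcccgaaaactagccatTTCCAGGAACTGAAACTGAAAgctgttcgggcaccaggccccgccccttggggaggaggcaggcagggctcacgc
Tgtp1: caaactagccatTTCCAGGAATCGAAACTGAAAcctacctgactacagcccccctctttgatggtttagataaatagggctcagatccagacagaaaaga
Tgtp2: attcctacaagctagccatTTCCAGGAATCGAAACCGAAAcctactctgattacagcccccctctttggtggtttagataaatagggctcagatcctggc
Irgm1: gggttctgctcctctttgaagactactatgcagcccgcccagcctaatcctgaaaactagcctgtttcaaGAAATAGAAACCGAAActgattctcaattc

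These stretches lie at chr11:58199456-58199555 on the plus strand (Igtp), chr11:58214877-58214976 on the plus strand (Irgm2), chr11:48992247-48992346 on the minus strand (Tgtp1), chr11:49064213-49064312 on the minus strand (Tgtp2) and chr11:48871421-48871520 on the minus strand (Irgm1). Both strands of the 250 bases before each start were searched. GAS matched in 7.02% of 32851 RefSeq promoters and ISRE in 2.98%. In Igtp, Irgm2, Tgtp1 and Tgtp2 the GAS match ended 2 bases before the ISRE match, on the strand of the gene. This arrangement was put together after the sequences had been seen, so that the matches in these 4 were given in advance. It matched 5 of the 32851 promoters (0.0152%), those 4 and that of Gm12185, another IRG gene of chromosome 11. It began 45 bases before the start in Igtp, 75 in Irgm2, 88 in Tgtp1 and 81 in Tgtp2. Irgm1 held 2 overlapping ISRE matches, 30 to 21 and 24 to 15 bases before its start, and no GAS match in this window. A match describes letters and shows no binding.

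DC libraries of the time course held 612017 to 1329203 counts in genes, those of the costimulation experiment 628404 to 1621784 and those at 20 h 367209 to 2052904. The DC label was checked against Flt3, Zbtb46, Itgax and class II genes. All 7 were detected in every group, with summed levels of 2540 to 15060 CPM (counts per 1e+06 reads, TMM-normalized) in the time course, 5666 to 26003 in the costimulation experiment and 20194 to 43569 at 20 h, and the lowest sums were those of the time course. T cell markers summed to 2344 to 2412 CPM in non-immunized and 896 to 1964 CPM in immunized DC of the time course. In these bulk samples fewer cells of a type and less RNA per cell cannot be told apart.

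In the time course all 3 regulatory genes were higher at both times and with both particles than in non-immunized DC. Irgm1, which localizes to the Golgi apparatus and lysosomes, stood at 236 and 229 CPM without immunization, 637 and 576 after CpG for 12 h, 673 and 1047 after CpG for 24 h, 1045 and 1019 after OVA for 12 h and 815 and 626 after OVA for 24 h. Both non-immunized libraries were lowest, and CpG replicate 2 at 24 h and both OVA libraries at 12 h passed 1000 CPM. Irgm2 stood at 130 and 136, 333 and 248, 471 and 518, 468 and 481, and 500 and 396 CPM in the same order. Its 3 later or antigen-bearing groups overlapped, and those of CpG at 12 h lay between them and the non-immunized pair. Igtp, a regulator found on the endoplasmic reticulum and lipid droplets, gave 238 and 227, 670 and 466, 1036 and 1338, 1249 and 1029, and 1001 and 943 CPM. For Igtp too the CpG libraries at 12 h lay between the non-immunized pair and all others.

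Among the effectors, Iigp1 (known as Irga6, a GTPase that oligomerizes on vacuole membranes) had the widest range. Its libraries gave 70.9 and 73.4 CPM without immunization, 241 and 285 after CpG for 12 h, 1043 and 795 after CpG for 24 h, 550 and 626 after OVA for 12 h and 790 and 623 after OVA for 24 h. The CpG libraries at 24 h were above all others, and the 2 OVA groups overlapped. Tgtp1 gave 86.4 and 83.0, 144 and 132, 330 and 283, 315 and 328, and 265 and 245 CPM in that order. Tgtp2 gave 133 and 121, 227 and 196, 484 and 407, 460 and 485, and 382 and 335 CPM. In both Tgtp genes, copies of Irgb6, the CpG libraries at 24 h and the OVA libraries at 12 h overlapped and lay above the other groups.

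**Figure D1:**
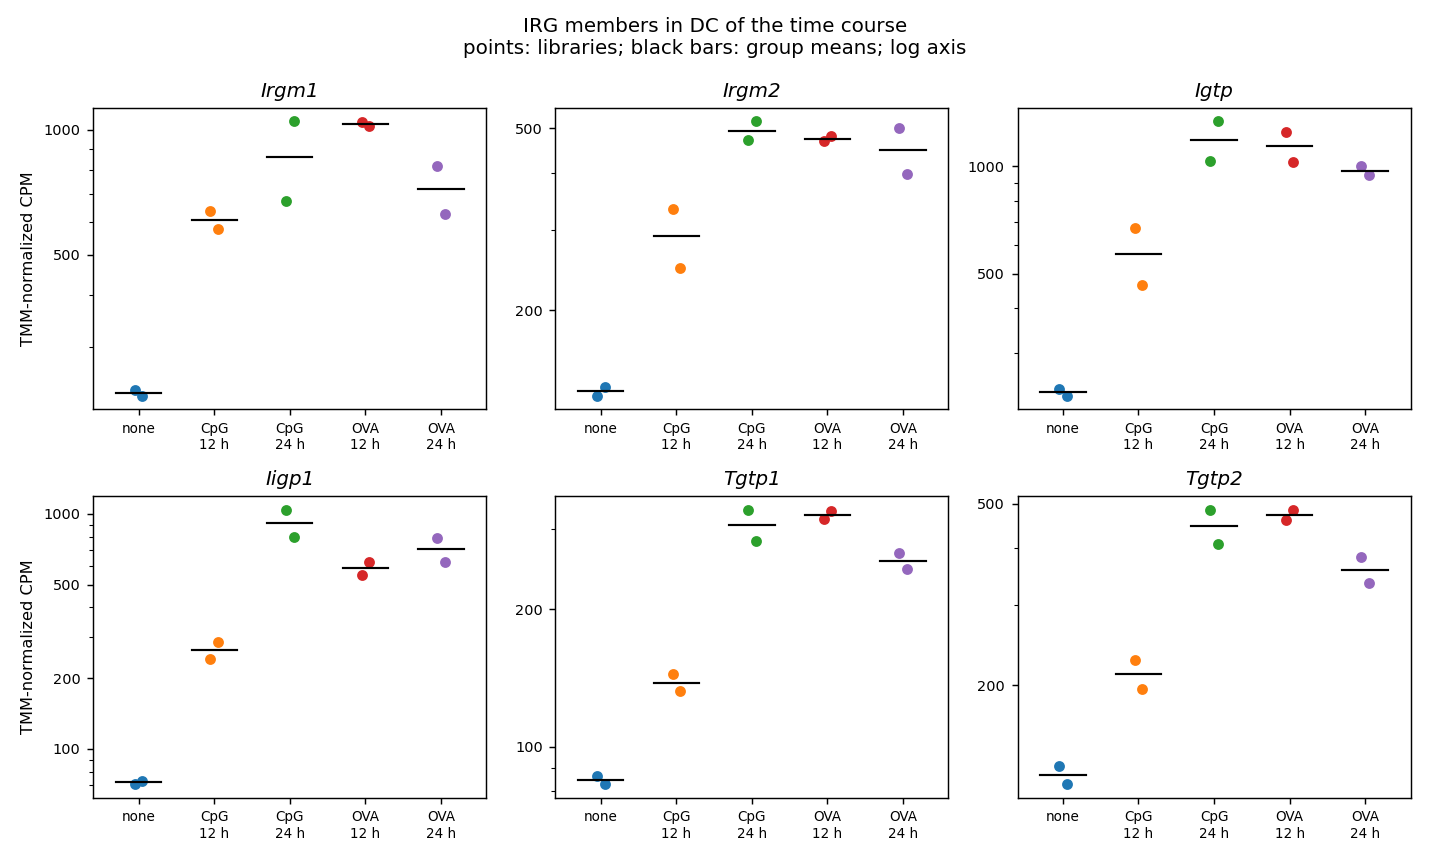
Level of each gene (TMM-normalized CPM, log axis) in the 10 DC libraries of the time course, by particle and time. Points are libraries and black bars are means of 2. The non-immunized pair is lowest in every panel, and the mean of the CpG pair at 12 h is next in every panel.

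Against non-immunized DC, all 6 genes were called higher (edgeR quasi-likelihood test, adjusted p below 0.05) in each of the 4 immunized groups. Of all 9428 genes tested, 11.6% were called higher after CpG for 12 h, 7.96% after CpG for 24 h, 9.56% after OVA for 12 h and 10.2% after OVA for 24 h. The 4 comparisons share the same 2 control libraries. After CpG for 12 h the log2 change was smallest for Tgtp1, 0.71 ± 0.19 (SE, adjusted p = 0.0179), and largest for Iigp1, 1.86 ± 0.22 (adjusted p = 2.4e-05). The median of the 6 was 1.21 and that of all genes -0.02. The calls of Tgtp1 and Tgtp2 depended on single libraries. With either non-immunized replicate or CpG replicate 1 at 12 h left out, the log2 change was 0.67 to 0.73 for Tgtp1 and 0.66 to 0.80 for Tgtp2. Each such fit leaves 1 library in a group. After CpG for 24 h the changes ran from 1.80 ± 0.19 for Tgtp2 to 3.67 ± 0.22 for Iigp1 (adjusted p = 1.67e-07). Iigp1 then had the smallest p of all genes tested. After OVA for 12 h they ran from 1.84 ± 0.20 for Irgm2 to 3.02 ± 0.22 for Iigp1, and after OVA for 24 h from 1.49 ± 0.19 for Tgtp2 to 3.29 ± 0.22 for Iigp1. In all 4 immunized groups Iigp1 had the largest change of the 6.

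Marker levels of DC and of other cells differed in these comparisons too. DC markers summed to 2540 to 4325 CPM without immunization. After CpG their sums were 7283 to 15060 CPM at 12 h and 5389 to 10304 CPM at 24 h. After OVA they were 4178 to 4529 CPM at 12 h and 7202 to 8145 CPM at 24 h. Of 6 DC markers tested, 5 and 4 were called higher after CpG and 0 and 4 after OVA, at 12 h and 24 h. Neutrophil markers summed to 127 to 174 CPM without immunization, 14764 to 18829 after CpG for 12 h, 82.0 to 680 after CpG for 24 h, 2602 to 2620 after OVA for 12 h and 433 to 2535 after OVA for 24 h. Migratory DC markers summed to 500 to 788 CPM without immunization and 1110 to 6936 CPM in the immunized groups, and plasmacytoid DC markers to 708 to 835 against 1232 to 2306 CPM. Of 4 plasmacytoid DC markers tested, 2 were called higher at 12 h and 3 at 24 h with either particle. In each of the 4 groups 1 was called lower. The part of these markers in the IRG changes was not tested.

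OVA and CpG particles were set against CpG particles to ask what antigen added. At 12 h, 4 of the 6 genes were higher with OVA, where 0.753% of all genes were called higher. These were Tgtp1 (log2 1.21 ± 0.18, adjusted p = 0.00249), Tgtp2 (1.15 ± 0.18, adjusted p = 0.00313), Iigp1 (1.16 ± 0.20, adjusted p = 0.00548) and Igtp (1.00 ± 0.21, adjusted p = 0.0149). Irgm1 differed by 0.77 ± 0.21 (adjusted p = 0.0741) and Irgm2 by 0.70 ± 0.19 (adjusted p = 0.0738). Irgm1 was also called by DESeq2 (adjusted p = 0.0314), which called 2.5% of all genes. Both Irgm genes were called in edgeR with no filter on low counts (3.08% of all genes) and with only these 4 libraries in the fit (4.89%), so that all 6 genes were then called. In each of the 6 genes both OVA libraries lay above both CpG libraries, which held for 21.7% of all genes. The count also depended on single libraries: the calls were lost in part or in full whichever of the 4 libraries was left out. Calls over all genes fell as well, and each such fit leaves 1 library in a group. Without CpG replicate 2 the log2 difference was 0.76 for Igtp, 1.27 for Iigp1, 1.15 for Tgtp1 and 1.05 for Tgtp2.

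Other cell types differed between the same 4 libraries. The summed level of 8 neutrophil markers was 14764 to 18829 CPM after CpG and 2602 to 2620 CPM after OVA, that of 7 DC markers 7283 to 15060 against 4178 to 4529 CPM, and that of 7 migratory DC markers 4003 to 4542 against 1110 to 1331 CPM. Plasmacytoid DC markers summed to 1232 to 1387 CPM after CpG and 1943 to 2306 CPM after OVA, and NK cell markers to 91.9 to 97.3 against 184 to 316 CPM. Of 4 plasmacytoid DC markers tested, 1 was called higher with OVA and 0 lower. Only 2 of these 4 differences were positive, with a median log2 of -0.04. Ncr1, a defining NK gene, was at 0 in both CpG libraries and in 1 of the OVA libraries. Ifng itself gave 4.69 and 0 CPM after CpG and 0.852 and 5.76 CPM after OVA. The part of these differences in the IRG values was not tested.

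At 24 h no difference was called. OVA libraries were lower than CpG libraries by 0.15 ± 0.19 (Irgm2) to 0.38 ± 0.19 (Iigp1) on the log2 scale, and 0 of the 6 genes were called, as were 0% of all genes in edgeR. None of the 6 had an unadjusted p under 0.05, against 959 of all genes, and DESeq2 called 0 of the 6 and 37 genes in all. In Igtp, Iigp1, Tgtp1 and Tgtp2 both OVA libraries lay below both CpG libraries, as in 17.8% of all genes. An interaction term tested how the difference between OVA and CpG libraries changed from 12 h to 24 h. It was called for 4 of the 6 genes, all downward, where 0.689% of all genes were: Iigp1 (log2 -1.54 ± 0.28, adjusted p = 0.00454), Tgtp1 (-1.47 ± 0.25, adjusted p = 0.00326), Tgtp2 (-1.46 ± 0.26, adjusted p = 0.00363) and Igtp (-1.29 ± 0.29, adjusted p = 0.0195). Irgm1 gave -1.03 ± 0.30 (adjusted p = 0.0766) and Irgm2 -0.85 ± 0.27 (adjusted p = 0.112). Igtp was not called without CpG replicate 2 at 12 h, OVA replicate 1 at 12 h or either OVA replicate at 24 h. Without CpG replicate 1 at 24 h the interaction was -1.33 for Irgm1 and -0.93 for Irgm2. In the interaction 7 of 7 migratory DC markers and 6 of 7 neutrophil markers tested were called higher, and their part was not tested.

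The change from 12 h to 24 h was also tested within each arm. With CpG, 5 of the 6 genes were higher at 24 h than at 12 h, where 3.36% of all genes were: Iigp1 by 1.80 ± 0.20 (adjusted p = 8.05e-05), Tgtp1 by 1.14 ± 0.18, Tgtp2 by 1.06 ± 0.19, Igtp by 1.06 ± 0.21 and Irgm2 by 0.77 ± 0.19 (adjusted p = 0.0226). Irgm1 differed by 0.51 ± 0.21 (adjusted p = 0.168). The calls of Igtp and Irgm2 depended on single libraries. Without CpG replicate 2 at 12 h the log2 difference was 0.79 for Igtp and 0.54 for Irgm2. Without CpG replicate 2 at 24 h it was 0.67 for Irgm2. Each such fit leaves 1 library in a group. Between these CpG groups neutrophil markers fell (7 of 7 tested called lower, with the sums given above), as did monocyte and macrophage markers (7 of 8), from 2470 to 2830 CPM at 12 h to 858 to 1169 CPM at 24 h. With OVA, 0 of the 6 were called between the times, where 8.9% of all genes were called in either direction. Their log2 differences ran from -0.52 ± 0.21 (Irgm1, adjusted p = 0.147) to 0.27 ± 0.19 (Iigp1). Of the 6, 2 had an unadjusted p under 0.05, as had 2138 of all 9428 genes, and DESeq2 called 0. Effectors took 27.2% to 32.2% of the reads of all 6 genes after CpG for 12 h and 33.8% to 46.0% after CpG for 24 h, against 32.4% to 36.3% after OVA for 12 h, 38.0% to 38.3% after OVA for 24 h and 31.9% to 32.5% without immunization.

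In the costimulation experiment the targeted genes were looked at first. Cd80 gave 4.26 and 12.4 CPM in the libraries labelled Cd80/86 -/- and 11.8 and 10.7 CPM in wild-type DC with OVA and OT cells. Cd86 gave 37.6 and 48.2 CPM against 83.9 and 88.3 CPM. Transcripts of both were thus present in the libraries labelled -/-, and whether the reads lie in the deleted parts was not tested, so these counts do not check the label. In all 6 IRG genes the 2 highest group means were those of wild-type DC without OT cells and of the libraries labelled -/-.

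Among the regulators, Igtp stood at 729 and 505 CPM without OT cells, 295 and 327 with OVA and OT cells, 339 and 138 with BSA and OT cells, and 675 and 398 in the libraries labelled -/-. Irgm1 gave 777 and 405, 428 and 426, 491 and 234, and 825 and 652 CPM in that order, and Irgm2 gave 261 and 148, 147 and 162, 117 and 45.4, and 227 and 174 CPM. The 2 BSA libraries differed widely from each other in each regulator, and the 2 libraries with OVA and OT cells lay close together. Among the effectors, Iigp1 gave 331 and 166, 107 and 115, 155 and 47.6, and 393 and 200 CPM. Tgtp1 gave 167 and 129, 79.2 and 103, 117 and 37.6, and 122 and 104 CPM, and Tgtp2 gave 222 and 169, 105 and 123, 142 and 53.1, and 168 and 134 CPM. BSA replicate 3 was the lowest of the 8 libraries in all 6 genes.

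**Figure D2:**
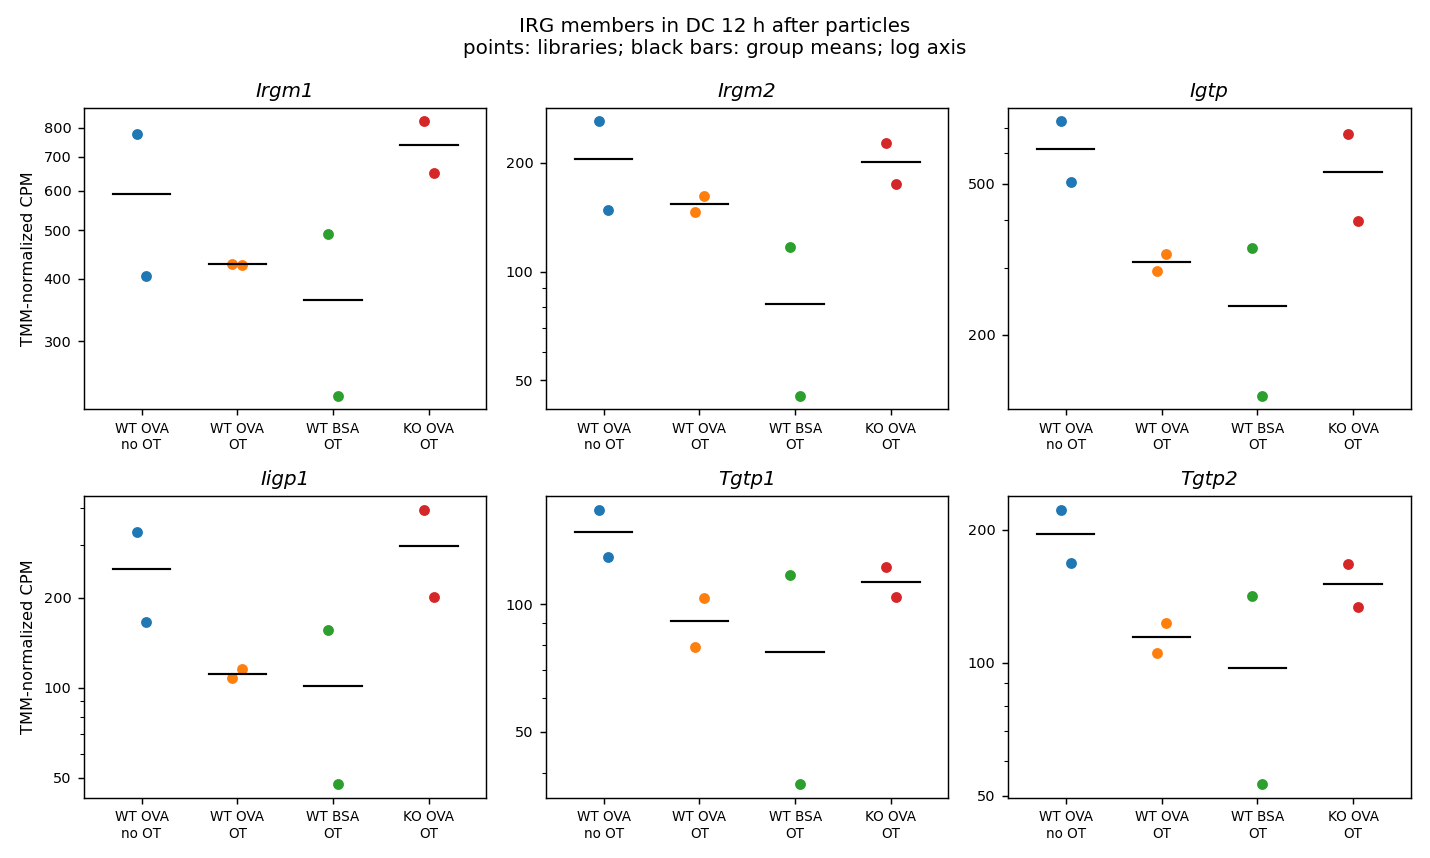
Level of each gene (TMM-normalized CPM, log axis) in the 8 DC libraries of the costimulation experiment at 12 h; WT is wild-type, KO is the group labelled Cd80/86 -/-, OT marks transferred T cells. Points are libraries and bars are means of 2; BSA replicate 3 (the right-hand point of its group) is lowest in every panel.

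With OT cells against without them (OVA particles), 0 of the 6 genes were called by edgeR, where 2.6% of all genes were. All 6 differences were negative, from -0.41 ± 0.40 (Irgm2, adjusted p = 0.668) to -1.16 ± 0.52 (Iigp1, adjusted p = 0.274). Of the 6, 2 (Igtp and Iigp1) had an unadjusted p under 0.05, as had 1631 of all 9355 genes, and DESeq2 called 0. Libraries did not overlap for Igtp, Iigp1, Tgtp1 and Tgtp2, as in 24.7% of all genes, and overlapped for Irgm1 and Irgm2. NK cell markers moved with this comparison: the 5 genes summed to 2028 to 5027 CPM without OT cells and to 28.1 to 124 CPM with them. Ncr1 was at 62.9 and 111 CPM without OT cells and at 1.57 and 0 CPM with them. Ifng, the cytokine that induces these GTPases, was at 687 and 2147 CPM without and at 23.5 and 0 CPM with OT cells (log2 -6.72 ± 1.52, adjusted p = 0.0454). DC markers summed to 5666 to 9593 CPM without and 14297 to 16030 CPM with them, migratory DC markers to 2021 to 3394 against 9133 to 10473 CPM (4 of 7 called higher), and plasmacytoid DC markers to 2594 to 3578 against 1076 to 1088 CPM. The part of these markers in the IRG values was not tested. Of the 2 libraries without OT cells, replicate 2 had the higher Ifng and the lower value in each of the 6 genes. Replicates 1 and 2 also differed in neutrophil markers (4605 and 20210 CPM) and in monocyte and macrophage markers (11009 and 5035 CPM). Their NK cell markers summed to 2028 and 5027 CPM. How Ifng relates to the 6 genes was not tested.

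With OVA against BSA, both with OT cells, 0 of the 6 genes were called (0.0107% of all genes in either direction). Irgm2 differed by 0.95 ± 0.43 (adjusted p = 0.544). It was the 1 gene of the 6 with an unadjusted p under 0.05, as were 850 of all 9355 genes. It was also the 1 with no overlap, which held for 19.1% of all genes in that direction. The other 5 differed by 0.16 ± 0.53 to 0.39 ± 0.42, and DESeq2 called 0. Without BSA replicate 3 those 5 differences turned negative, for example -0.49 for Iigp1.

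In the libraries labelled Cd80/86 -/- against wild type, both with OVA and OT cells, 0 of the 6 genes were called, as were 0% of all genes in edgeR (1068 genes had an unadjusted p under 0.05, and DESeq2 called 44, with 0 of the 6). In all 6 genes both libraries labelled -/- lay above both wild-type libraries, as in 25.5% of all genes. The largest difference was that of Iigp1, 1.42 ± 0.52 (adjusted p = 0.37; unadjusted p = 0.0192), followed by Igtp with 0.79 ± 0.42 and Irgm1 with 0.79 ± 0.40. Fitted on these 4 libraries alone, Iigp1 and Irgm1 were called, and so were 679 of all 8473 genes tested (8.01%). Monocyte and macrophage markers summed to 7099 to 8945 CPM in the libraries labelled -/- and 4522 to 4618 CPM in wild-type DC, and migratory DC markers to 3852 to 4577 against 9133 to 10473 CPM. Their part was not tested.

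At 20 h the 6 genes were lowest in non-immunized DC, intermediate with BSA and highest with OVA in mean level. Igtp stood at 18.8, 22.0, 30.3, 17.8 and 17.9 CPM without immunization, at 141, 34.7, 90.6, 37.7 and 52.7 CPM with BSA and at 179, 222, 258, 211 and 68.2 CPM with OVA. Every immunized library lay above every non-immunized one, as in 4.81% of all genes for BSA and 6.83% for OVA, and OVA replicate 5 alone fell within the BSA range. Irgm1 stood at 45.8, 56.0, 105, 53.5 and 61.0 CPM, at 253, 79.4, 194, 78.6 and 126 CPM and at 321, 356, 382, 391 and 132 CPM in that order. Irgm2 stood at 30.2, 24.8, 60.5, 25.6 and 22.2 CPM, at 64.1, 28.5, 78.9, 41.8 and 49.5 CPM and at 87.7, 140, 98.4, 166 and 45.7 CPM. For both Irgm genes non-immunized replicate 3 was the highest of its group and reached into the BSA range.

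The effectors spread more at 20 h, at low levels. Iigp1 stood at 5.21, 3.55, 16.5, 7.80 and 11.7 CPM without immunization, at 51.1, 18.5, 31.2, 11.5 and 14.4 CPM with BSA and at 52.4, 132, 40.3, 80.3 and 9.14 CPM with OVA. OVA replicate 5 and BSA replicates 4 and 5 fell inside the non-immunized range. Tgtp1 gave 4.17, 3.55, 19.3, 9.47 and 16.0 CPM, then 56.7, 26.2, 50.6, 29.5 and 14.4 CPM, then 66.4, 131, 83.1, 141 and 16.9 CPM. Tgtp2 gave 7.29, 8.51, 24.8, 10.6 and 19.1 CPM, then 74.3, 30.1, 65.9, 31.9 and 19.2 CPM, then 91.7, 163, 99.4, 175 and 21.8 CPM. In both Tgtp genes OVA replicate 5 and BSA replicate 5 lay inside the non-immunized range.

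**Figure D3:**
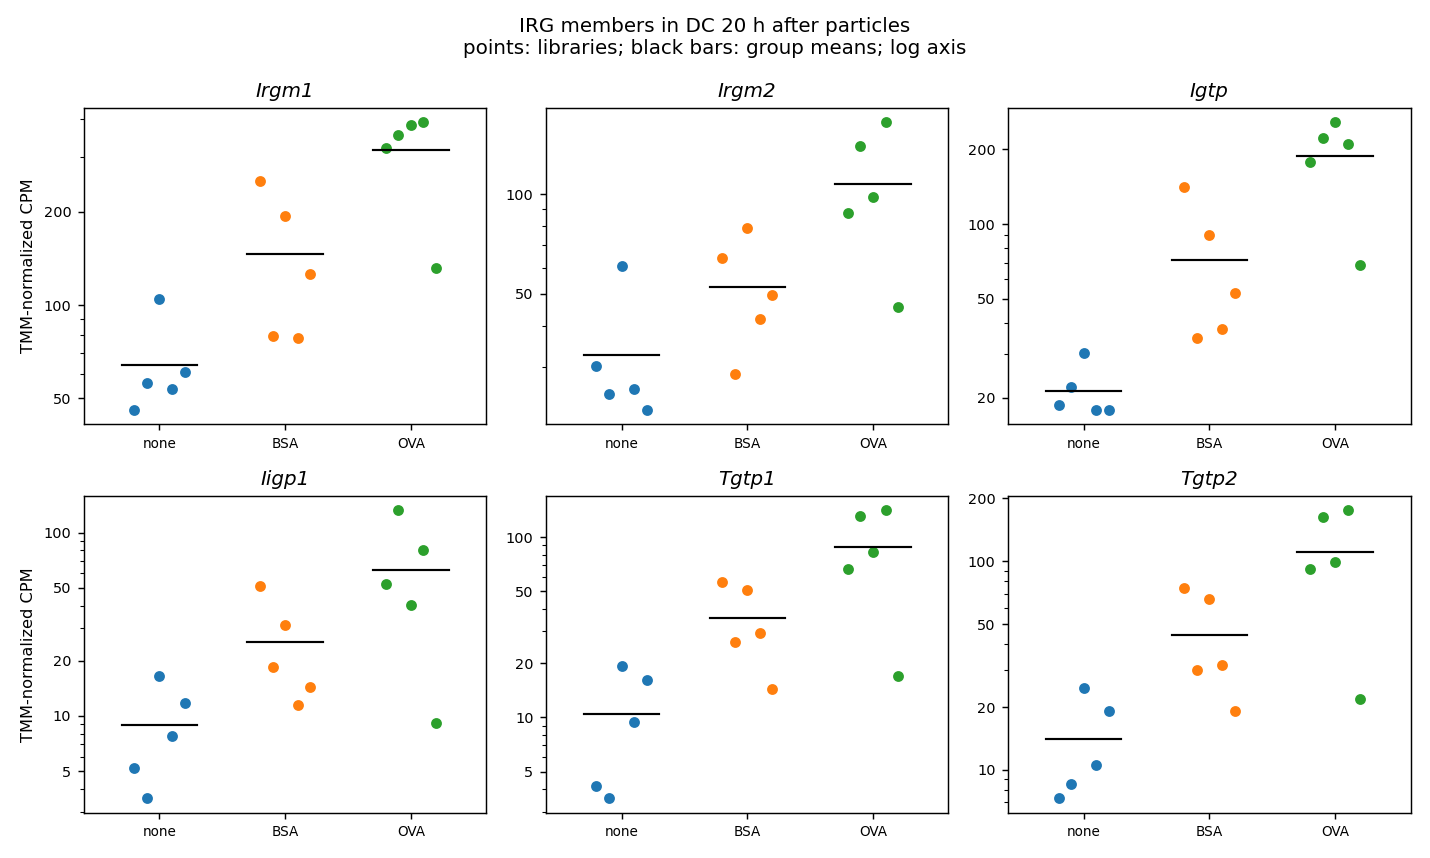
Level of each gene (TMM-normalized CPM, log axis) in the 15 DC libraries at 20 h, 5 per group. Points are libraries in replicate order and bars are means; OVA replicate 5, the right-hand point of its group, is the lowest OVA library in every panel.

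After OVA all 6 genes were called higher than without immunization, where 9.59% of all genes were. Igtp rose by 3.21 ± 0.38 on the log2 scale (adjusted p = 1.93e-05), Tgtp1 by 3.16 ± 0.50 (adjusted p = 0.000231), Tgtp2 by 3.08 ± 0.47, Iigp1 by 2.91 ± 0.55 (adjusted p = 0.0011), Irgm1 by 2.37 ± 0.33 and Irgm2 by 1.87 ± 0.32. Igtp and Irgm1 did not overlap. All 6 stayed called whichever library was left out, in fits that called 10.7% to 15.2% of all genes in either direction. Monocyte and macrophage markers were lower in both immunized groups (4 of 5 tested called in each), with sums of 482 to 1631 CPM without immunization, 125 to 251 with BSA and 70.4 to 260 with OVA, and their part was not tested. After BSA, 4 of the 6 were called higher, where 3.68% of all genes were: Igtp by 1.82 ± 0.39 (adjusted p = 0.00897), Irgm1 by 1.26 ± 0.33 (adjusted p = 0.0254), Tgtp2 by 1.78 ± 0.50 (adjusted p = 0.037) and Tgtp1 by 1.88 ± 0.53 (adjusted p = 0.0392). Iigp1 differed by 1.64 ± 0.59 (adjusted p = 0.114) and Irgm2 by 0.86 ± 0.33 (adjusted p = 0.14). Igtp alone stayed called without non-immunized replicate 1, 2 or 4 or BSA replicate 1 or 3, where 2.2% to 3.77% of all genes were called. Irgm1 was lost without non-immunized replicate 5 (4.24% of all genes). Y-linked transcripts passed 20 CPM in non-immunized replicates 1 to 3 and OVA replicates 3 and 4 and in no BSA library. With a term for them 2 of the 6 were called after BSA, and 187 of all genes in place of 499.

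OVA against BSA, in mice whose labels do not say whether they carried OT cells, gave 0 of the 6 genes called and 0% of all genes in edgeR. All 6 differences were positive, between 1.01 ± 0.29 (Irgm2) and 1.40 ± 0.33 (Igtp, adjusted p = 0.528), and all 6 had an unadjusted p under 0.05, as had 561 of 9159 genes. DESeq2 called 0 of the 6 and 0 genes in all. In all 6 the libraries overlapped. Igtp had the third smallest p of all genes (0.000313). Without OVA replicate 5, Igtp was called (log2 1.61, adjusted p = 0.0399), 1 of 4 genes in all; over all its fits its adjusted p lay between 0.0373 and 1. Migratory DC markers summed to 9657 to 13229 CPM without immunization, 13314 to 21830 with BSA and 17855 to 24044 with OVA, and plasmacytoid DC markers to 256 to 355, 314 to 780 and 600 to 831 CPM. Ifng gave 13.0, 3.08, 51.2, 1.64 and 0.799 CPM with BSA and 38.5, 1.14, 18.2, 177 and 0.703 CPM with OVA. The part of these in the IRG differences was not tested.

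In sorted OT-II T cells the means of all 6 genes were lower after OVA than after BSA. Values are normalized counts, not comparable with CPM. Iigp1 stood at 153, 127 and 157 after BSA and at 89.2, 114 and 64.2 after OVA, with no overlap. Tgtp1 stood at 89.0, 66.2 and 59.1 after BSA and at 32.5, 58.5 and 25.9 after OVA, again with no overlap, and Tgtp2 at 129, 79.4 and 87.6 against 47.2, 90.1 and 41.4. The regulators overlapped: Irgm2 gave 141, 114 and 74.4 against 54.6, 98.8 and 46.6, Irgm1 252, 154 and 180 against 132, 207 and 118, and Igtp 383, 241 and 208 against 246, 280 and 135. OVA replicate 2 was the highest OVA library in all 6 genes.

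**Figure D4:**
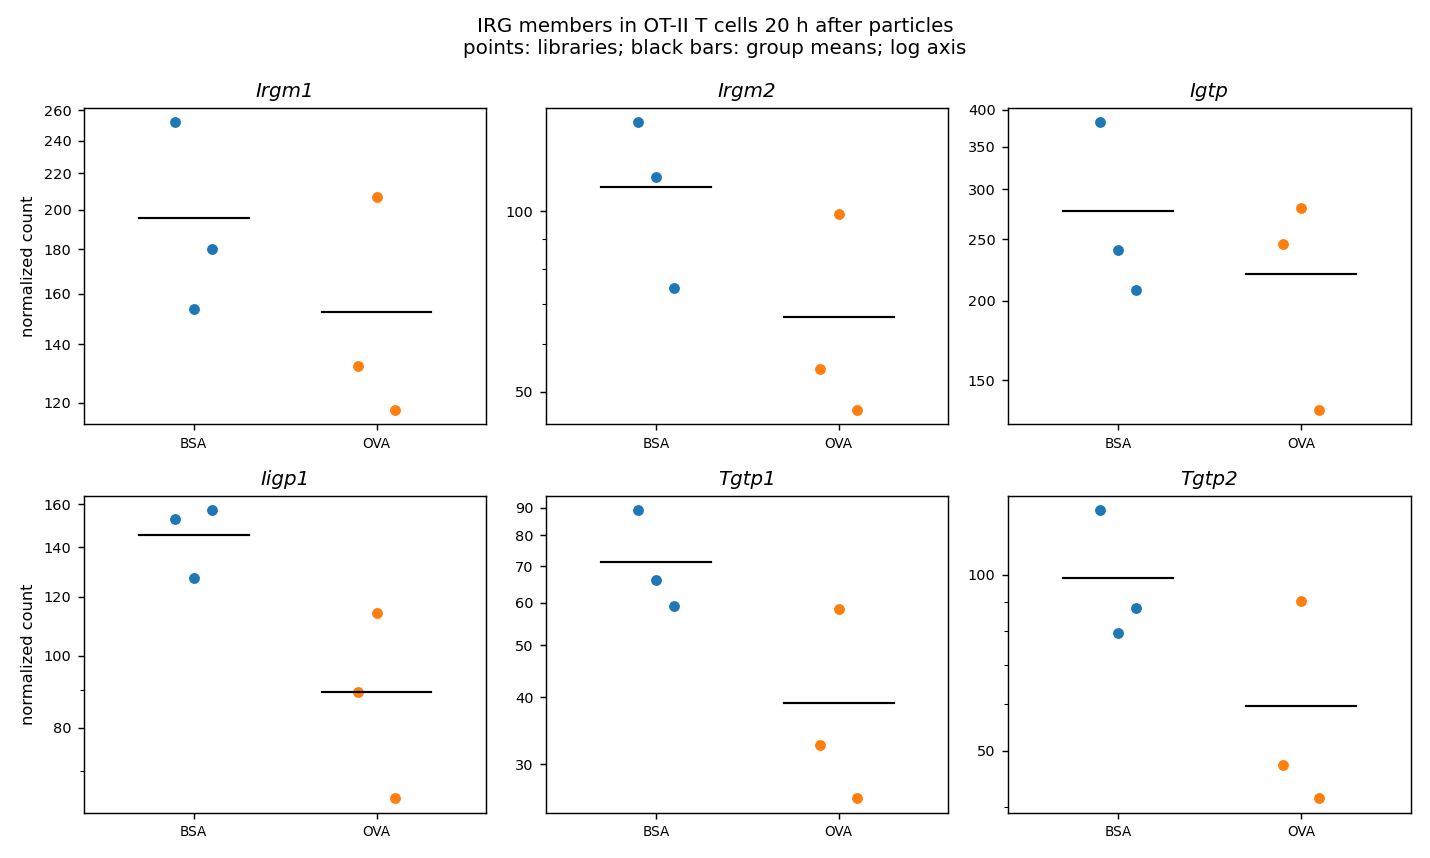
Level of each gene (normalized count, log axis) in the 6 OT-II T cell libraries at 20 h, 3 per group. Points are libraries and bars are means; the OVA mean is below the BSA mean in every panel, and OVA replicate 2, the middle point, is the highest of its group.

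In T cells 0 of the 6 were called by limma, where 15.9% of all genes were. The log2 differences were -0.92 ± 0.31 for Tgtp1 (adjusted p = 0.0612), -0.77 ± 0.31 for Tgtp2, -0.74 ± 0.31 for Irgm2, -0.73 ± 0.24 for Iigp1 (adjusted p = 0.0548), -0.37 ± 0.25 for Irgm1 and -0.35 ± 0.29 for Igtp. Of the 6, 4 had an unadjusted p under 0.05, as had 2112 of all 6452 genes. In 15.4% of all genes every OVA library lay below every BSA library. The authors' deposited table gives Iigp1 a log2 change of -0.73 with an adjusted p of 0.0598. edgeR on the recovered reads called 2 of the 6, Iigp1 (adjusted p = 0.0356) and Tgtp1 (adjusted p = 0.0468), where it called 17.9% of all genes. Without OVA replicate 2, 4 were called (Iigp1, Tgtp1, Tgtp2 and Irgm2), as were 23.8% of all genes. DC markers were detected in these T cells, at sums of 2725 to 3570 after BSA and 439 to 2994 after OVA, beside T cell markers of 1379 to 1518 and 993 to 1229. Recovered reads were 155088 to 402391 after BSA and 423594 to 1316341 after OVA, so that depth and particle cannot be told apart, and the part of the DC markers was not tested.

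**Figure D5:**
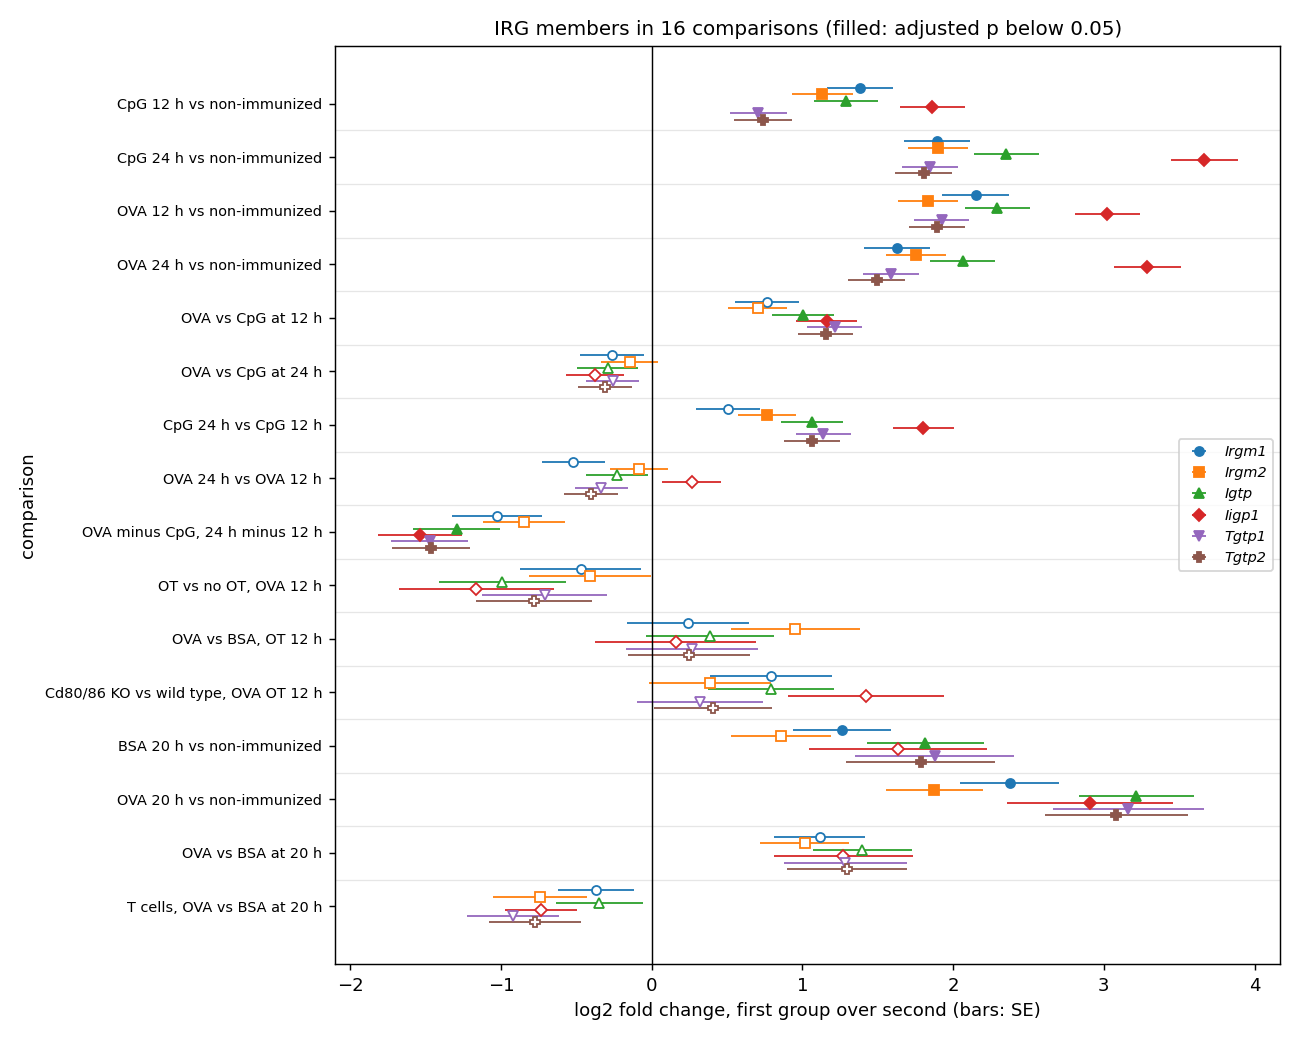
Log2 fold change of each gene in the 16 comparisons, with bars of 1 SE; filled symbols have an adjusted p below 0.05. Changes against non-immunized DC lie to the right of 0, up to 3.67 for Iigp1 after CpG for 24 h, and those of T cells lie to the left.

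Tgtp1 and Tgtp2 are near-identical copies. The transcripts compared were 2823 and 2810 bases long and 99.79% identical over 2810 aligned bases, and 89.4% of the 50-base words of Tgtp1 also occurred in Tgtp2. How the authors assigned reads that fit both is not given in the sources used here. Tgtp2 took 57.7% to 61.2% of the reads of the pair in the time course, 54.4% to 58.5% in the costimulation experiment, 52% to 70.6% at 20 h and 54.5% to 61.5% in T cells, so the split between them is uncertain. Summed and fitted as 1 gene, the pair differed between OVA and CpG at 12 h by 1.18 ± 0.18 (adjusted p = 0.00249) and in the interaction by -1.47 ± 0.25 (adjusted p = 0.00282), and it kept its side of the threshold in all 16 comparisons relative to Tgtp2.

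Other members of the family were followed from a list of 12 symbols, of which 7 could be tested in the time course. Of these, 3 were called higher after CpG for 12 h and 4 in each other immunized group: Ifi47 (Irgd), Gm12250 (Irgb10), Gm4951 and, from the second group on, Gm12185. Ifi47 gave 287 and 292 CPM without immunization, 704 and 547 after CpG for 12 h, 969 and 1086 after CpG for 24 h, 1307 and 1176 after OVA for 12 h and 923 and 822 after OVA for 24 h. It was the 1 gene of the 7 called higher with OVA than with CpG at 12 h (0.99 ± 0.18, adjusted p = 0.00908), while Gm12250 differed by 0.88 ± 0.24 (adjusted p = 0.0651) and Gm12185 by 1.32 ± 0.34 (adjusted p = 0.0514). In the interaction Ifi47 (-1.22 ± 0.26) and Gm12185 (-1.77 ± 0.43) were called. Irgq, Gm5431 and 9930111J21Rik1 were called in no comparison of the time course. At 20 h, 4 of the 5 tested were called after OVA and 2 (Gm12250 and Ifi47) after BSA, and in T cells 0 of 3 were called.

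Guanylate-binding proteins, the partner family at vacuoles, were counted in each comparison too. Of 10 tested in the time course, 8, 10, 9 and 10 were called higher after CpG for 12 h, CpG for 24 h, OVA for 12 h and OVA for 24 h, and 8 were higher with OVA than with CpG at 12 h, led by Gbp4 (1.10 ± 0.19, adjusted p = 0.00521). In the interaction 4 were called lower, Gbp7 with -1.46 ± 0.29. Gbp2, which rose by 3.28 ± 0.22 after OVA for 12 h, rose by 2.09 ± 0.24 after OVA at 20 h, when 5 of the 7 tested were called. Against the absence of OT cells Gbp6 was called lower (-1.68 ± 0.37, adjusted p = 0.0422), the 1 of 8 that was. In T cells 0 of 9 were called.

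Of 15 genes tested for interferon signalling upstream of the IRG genes, 9 were called higher in each immunized group of the time course, with 2 called lower at 12 h with either particle and 0 at 24 h. Usp18, which restrains the type I interferon receptor, rose by 2.73 ± 0.32 after CpG for 12 h and by 3.45 ± 0.32 after OVA for 12 h, and Stat2 rose by 1.86 ± 0.27 and 2.60 ± 0.27. Between OVA and CpG at 12 h the 1 gene called was Socs1, a feedback inhibitor of the JAK kinases (0.92 ± 0.19, adjusted p = 0.0152), which was also the 1 called in the interaction (-1.03 ± 0.27, adjusted p = 0.0459). At 20 h after OVA 9 of 16 were higher and 2 lower, and Ifngr1, a chain of the interferon-gamma receptor, fell by 1.29 on the log2 scale (SE 0.20). In T cells Irf8 was called higher (1.42 ± 0.32) and Ifngr2 (-1.31 ± 0.34) and Irf9 (-0.76 ± 0.22) lower with OVA.

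Of 15 genes for vacuole targeting and autophagy conjugation tested in the time course, 2, 2, 2 and 3 were called higher in the 4 immunized groups in the order above, where 11.6%, 7.96%, 9.56% and 10.2% of all genes were. Gabarap, an ATG8 protein, was called in all 4 (0.99 ± 0.19 after CpG for 12 h), and Atg5 was called lower after OVA for 12 h (-0.73 ± 0.23). Trim21, an interferon-induced ubiquitin ligase, was the 1 gene of the list higher with OVA than with CpG at 12 h (0.93 ± 0.20, adjusted p = 0.0195) and lower in the interaction (-1.10 ± 0.28, adjusted p = 0.0385). In T cells Trim21 was called lower with OVA (-0.98 ± 0.27, adjusted p = 0.0307).

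Across the 33 DC libraries, centred within each experiment, pairs of members correlated with r from 0.86 (Irgm2 with Tgtp1) to 0.99 (Tgtp1 with Tgtp2). Centred on group means as well, r ran from 0.70 (Igtp with Tgtp1) to 0.97 (Tgtp1 with Tgtp2). Igtp and Irgm1 (0.94) and Iigp1 and Tgtp2 (0.93) were then among the closest pairs. Among 7192 expressed genes, those whose pattern was most like the mean of the members included Ifi47 (r = 0.97), Gm12250 (0.95), Parp14 (0.94) and Slfn8 (0.93). These values are descriptions, since libraries share groups, depth and preparation.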

How the data were processed

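Polyadenylated RNA of sorted DC and OT-II T cells was sequenced. Per the submitters' processing notes, bcl2fastq, HISAT 0.1.6 and HOMER were used with build mm9. The authors deposited raw counts per gene for DC. Those of the time course are labelled UMI (unique molecular identifier), and reads of that experiment mean these counts. For T cells the authors deposited normalized signal, in which 100% of values were whole multiples of a step per library, to within 0.01 reads, so reads could be recovered. The authors' log2 fold changes and adjusted p-values of that table come from the deposited file. In the 20 h table, 4 columns of 2 libraries that match no sample were not used.

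DC counts were tested with edgeR 4.0.16 (quasi-likelihood, TMM, filterByExpr by group, all libraries of an experiment in 1 fit). T cells were tested with limma 3.58.1 with a trend on log2(normalized count + 1) after keeping genes that reached 10 normalized counts in 3 libraries. P-values were adjusted over all genes tested (Benjamini-Hochberg) and called below 0.05. DC levels are TMM-normalized CPM. Alternatives were DESeq2 1.42.0, its size factors, other filters, a replicate block, fewer libraries and, in T cells, pseudocounts of 0.5 and 5. R 4.3.3 was used, and the fits were tested on simulated data. The members, lists, markers and motifs were chosen with earlier results of these data known. Named genes are the members, every tested gene of the family list, the called genes of smallest adjusted p in each other list, and the 5 genes most correlated with the members (mean of at least 10 CPM in each experiment). A gene that this rule names is not reported here. Replicate numbers did not pair the samples: same-numbered libraries correlated with r from -0.14 to 0.18 over the 4 experiments, against the level of 0.1 in every pair.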

Additional observations from a re-analysis of the deposited data

Results flagged for a closer look

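Libraries that stood apart from their group of 5 by Dixon's test were found in 3 of 18 combinations of gene and group at 20 h, a test that chance alone passes in about 1 in 20. The 18 combinations share libraries and correlated genes, so they are not separate tests. In non-immunized replicate 3, Irgm1 (105 CPM) and Irgm2 (60.5 CPM) were far above the other 4 libraries. That library held 367209 reads, the fewest at 20 h. It also had the highest monocyte and macrophage markers of its group (1631 CPM). In OVA replicate 5, Irgm1 (132 CPM) was far below the other 4.

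By the test of the interaction, the difference between OVA and CpG libraries changed from 12 h to 24 h in some of the genes. These were Igtp (log2 -1.29), Tgtp1 (-1.47), Tgtp2 (-1.46) and Iigp1 (-1.54). The groups were small, and the call of Igtp depended on single libraries. Migratory DC and neutrophil markers also changed in the interaction, and their part was not tested.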

How the results depend on the processing

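No setting reversed a called difference, and DESeq2's size factors in edgeR kept every direction. The number of the 6 genes called moved beyond a factor of 1.5 in these settings: with no filter on low counts, 1 was called in OVA 24 h against 12 h (1175 of all 15217 genes), OT against no OT (917 of 15894), Cd80/86 -/- against wild type (303 of 15894) and OVA against BSA at 20 h (2 of 16445). With only the libraries compared in the fit, 3 were called in CpG 24 h against 12 h (2.85% of all genes) and 2 in Cd80/86 -/- against wild type (8.01%). After BSA at 20 h, 2 were called with a term for Y-linked transcripts (2.04% of all genes) and 2 with the replicate number as a block (4.36%), which moved no other count by that factor. In T cells 1 was called with a pseudocount of 5 (17.3%) and 2 with edgeR on recovered reads (17.9%). With each library left out in turn the counts ran from 1 to 4 after BSA, where 2.2% to 5.33% of all genes were called. They ran from 0 to 1 in OVA against BSA at 20 h (0% to 0.0432%) and from 0 to 4 in T cells (5.95% to 23.8%). In the time course, fewer of the 6 were called in OVA against CpG at 12 h whichever library was left out. The count in CpG 24 h against 12 h also moved beyond a factor of 1.5, and that in the interaction changed within this factor. A library left out there leaves 1 in its group, which is then assumed to vary like the other groups. No blocked fit was possible for OVA against BSA with OT cells, which share 1 replicate number. Uncalled differences that turned sign with a library left out were, as the range over the libraries left out, Irgm1 (-0.54 to 0.11) and Irgm2 (-0.31 to 0.016) in OVA against CpG at 24 h, Irgm2 in OVA 24 h against 12 h (-0.27 to 0.074), Irgm1 (-0.84 to 0.077) and Irgm2 (-0.73 to 0.058) in OT against no OT, and, in OVA against BSA with OT cells, Igtp (-0.13 to 1.22), Irgm1 (-0.21 to 0.93), Iigp1 (-0.49 to 1.28), Tgtp1 (-0.37 to 1.32) and Tgtp2 (-0.33 to 1.15). Centred on group means, 2 of the 5 genes most like the members stayed among the 5. Low counts limit the effectors at 20 h, and 2 libraries a group limit the time course.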
